A study of Mus musculus with 10 samples.

Results

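The genes *Hhex*, *Hnf4a*, *Prdm1*, *Trh*, *Ttr*, *Afp*, *Apoa1*, *Apob* and *Amn* are used to tell definitive from visceral endoderm and were followed across 4 groups of sorted cells. They were found by matching the Ensembl identifiers of the count tables to GENCODE M21 symbols, and all 9 were present among the 38924 genes of every table. RNA had been sequenced from 10 samples of cells sorted on the fifth day of differentiation of a mouse embryonic stem cell (mESC) line, Foxa2-hCD4, whose *Foxa2* locus carries a human CD4 (hCD4) reporter for sorting. Embryoid bodies induced with BMP4, VEGF and a low dose of Activin A gave 3 samples of Foxa2+ cardiac mesoderm (CM) and 3 of Foxa2- CM, both sorted as Pdgfra- and Kdr-positive cells and parted by hCD4. The same cardiac induction gave 2 samples labelled Flk1+ high, Flk1 being the receptor encoded by *Kdr*. The last group was 2 samples of hCD4-positive endoderm from embryoid bodies induced with a high dose of Activin A alone. All 4 groups share the tagged line, and no other line was sequenced. The labels number the samples within a group but do not say whether they came from separate cultures, so that p-values measure only the spread between these samples.

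Definitive endoderm arises from the epiblast through the primitive streak and goes on to line the gut. Visceral endoderm descends from the earlier primitive endoderm, covers the embryo before and during gastrulation, and takes up and secretes nutrient-carrying proteins, including apolipoproteins, transthyretin and alpha-fetoprotein. Many transcription factors are common to both tissues, whereas the secretory and absorptive genes are typical of visceral endoderm before the liver forms. Bulk RNA cannot tell fewer cells of a type from less RNA per cell, and this holds for every value below.

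The promoter sequences of 4 of the genes are shown because they include the highest (*Trh*) and the lowest (*Afp*) member in endoderm per length and a regulator and a secretory gene that varied strongly between replicates (*Hnf4a* and *Apob*), and because FOXA and HNF4 proteins, among them the factor on which the cells were sorted, bind short words of DNA. Each is the 250 bases before a RefSeq start on build GRCm38.p6, written 5′ to 3′ along the gene's own strand. Of the members, 8 had a window in the table that was used. Capitals mark matches, on either strand, to TGTTTAC or TGTTTGC, the forkhead words, to GTTAAT, a homeodomain word, to CAAAGNNCA, a repeat of the HNF4 kind, and to TATAAA, the word of the TATA box; none of these words overlapped another in the windows printed. *Trh* is at chr6:92244651-92244900 on the minus strand, *Afp* at chr5:90490464-90490713 on the plus strand, *Apob* at chr12:7977427-7977676 on the plus strand, and the downstream of the 2 *Hnf4a* starts at chr2:163546905-163547154 on the plus strand.
Trh: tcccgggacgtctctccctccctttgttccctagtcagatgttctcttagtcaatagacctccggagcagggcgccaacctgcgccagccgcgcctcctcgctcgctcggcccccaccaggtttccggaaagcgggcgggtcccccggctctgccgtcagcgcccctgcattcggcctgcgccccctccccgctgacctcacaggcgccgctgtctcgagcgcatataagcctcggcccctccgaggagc
Afp: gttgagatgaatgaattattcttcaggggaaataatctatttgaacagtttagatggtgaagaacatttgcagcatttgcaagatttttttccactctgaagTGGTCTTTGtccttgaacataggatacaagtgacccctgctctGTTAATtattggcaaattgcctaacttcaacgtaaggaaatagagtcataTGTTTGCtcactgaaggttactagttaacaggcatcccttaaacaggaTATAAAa
Apob: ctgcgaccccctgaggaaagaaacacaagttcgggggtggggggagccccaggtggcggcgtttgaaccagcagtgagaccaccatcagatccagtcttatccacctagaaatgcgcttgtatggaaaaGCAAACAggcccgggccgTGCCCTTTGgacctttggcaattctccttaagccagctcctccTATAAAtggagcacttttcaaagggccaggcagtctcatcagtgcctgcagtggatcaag
Hnf4a downstream start: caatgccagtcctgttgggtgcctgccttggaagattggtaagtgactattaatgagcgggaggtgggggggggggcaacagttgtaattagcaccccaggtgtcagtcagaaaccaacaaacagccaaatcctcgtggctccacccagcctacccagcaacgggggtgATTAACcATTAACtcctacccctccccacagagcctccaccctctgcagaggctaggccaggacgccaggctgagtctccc

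The window of *Trh*, the member with the highest level in endoderm, held none of the 5 words. *Afp* held TGTTTGC 55 bases before its start, GTTAAT at 105, the HNF4-type repeat at 148 and TATAAA at 7. *Apob* held TGTTTGC at 121, the HNF4-type repeat at 103 and TATAAA at 60. *Apoa1* held TGTTTGC at 88 and again at 75, and *Prdm1*, whose window lies before a RefSeq start inside the annotated gene, held TGTTTAC at 231 and TGTTTGC at 163, while *Hhex*, *Amn* and the upstream *Hnf4a* window held none. The downstream *Hnf4a* window, which also lies inside the annotated gene, held GTTAAT at 81 and at 74. Distances are counted from the RefSeq starts, and the *Apoa1*, *Apob* and *Hhex* windows run past the GENCODE gene starts given below. Among all 32851 RefSeq windows of this length, TGTTTAC was present in 3.17%, TGTTTGC in 4.3%, GTTAAT in 6.43%, the HNF4-type repeat in 5.49% and TATAAA in 12.4%. A match describes the letters and is not a site of binding, and no binding was measured in these samples.

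Counts on genes totalled between 10926284 and 17470126 per sample, so that 3 counts, taken as the smallest detectable signal, stood at 0.169 to 0.28 CPM, the depth-scaled count used for levels throughout (library sizes by the TMM method of edgeR). This floor covers counting error only. *Foxa2*, on which the cells were sorted, was at 186 and 183 CPM in the endoderm samples, 20.0, 16.0 and 3.5 CPM in Foxa2+ CM, 2.54, 0.873 and 0.903 CPM for Foxa2- CM, and 0.69 and 0.788 CPM in Flk1+ high. All 3 Foxa2+ CM samples were above all 3 Foxa2- CM samples, but replicate 3 only narrowly. *Kdr* was at 354 to 440.2 CPM in the 6 CM samples, 554 and 593 CPM in Flk1+ high, and 6.24 and 9.95 CPM in endoderm. Among the CM libraries, Foxa2- CM replicate 3 stood furthest apart at the genes treated here. Foxa2- CM replicate 3 was at least 2-fold above both other Foxa2- CM samples at 6 of the 9 members and at 11 of the 20 tested genes of a visceral endoderm list, against 558 of all 16180 tested genes (3.45%). It was also at least 2-fold higher at 6 of 10 haemato-endothelial markers, whose summed level was 641 CPM there and 385 and 390 CPM in replicates 1 and 2. High levels of these markers were not particular to it. Foxa2+ CM replicate 3 was higher still at *Tal1* (112 against 101 CPM), *Runx1* (164 against 144 CPM) and *Gata2*. It was also higher at *Lmo2* and *Etv2*, but there it was the lowest Foxa2+ CM sample. Foxa2+ CM replicates 1 to 3 had 117, 101 and 88.0 CPM of *Lmo2* and 126, 104 and 97.6 CPM of *Etv2*. Foxa2+ CM replicate 3 was lower than Foxa2- CM replicate 3 at *Cdh5* (13.6 against 43.4 CPM), *Tek* (14.9 against 30.6 CPM), *Gata1*, *Fli1* and *Pecam1*. Foxa2+ CM replicate 1 and Foxa2- CM replicate 2 also departed from their groups. Each was at least 2-fold below the others at 3 of the 9 members and 4 of the 20 visceral genes. The shares over all tested genes were 1.71% and 1.65%. Of the endoderm samples, replicate 2 was at least 2-fold above replicate 1 at 7 of the 9 members and 12 of the 20 visceral genes, against 1048 of the 16180 genes (6.48%). The results printed below on the members and on the visceral, shared and anterior visceral lists are therefore also given without Foxa2- CM replicate 3 or an endoderm sample where that changes a call. List comparisons not printed below changed too. In endoderm against Foxa2- CM, 2 of 20 visceral genes were higher and 3 lower (all genes 9.18% and 7.81%). Without Foxa2- CM replicate 3, 7 of 19 were higher (all genes 9.03%) and 1 lower. In Foxa2+ CM against Foxa2- CM, that omission moved the shared list from 3 higher and 0 lower to 4 and 1. It moved the anterior visceral list from 1 and 0 to 1 and 1. Such omissions were picked from the values of these same genes, so counts without these libraries only describe how the calls depend on them.

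*Hhex*, a homeobox factor of anterior endoderm that is also made in early blood and endothelial precursors, lies at chr19:37434810-37440731 on the plus strand (ENSMUSG00000024986.5). Its level was 64.0 and 98.0 CPM in endoderm, 114 and 129.6 CPM in Flk1+ high, 28.6, 28.5 and 36.9 CPM in Foxa2+ CM, and 19.9, 17.5 and 32.6 CPM in Foxa2- CM. Both endoderm samples were above all 6 CM samples, and both Flk1+ high samples were above both endoderm samples. *Hhex* was higher in endoderm than in Foxa2+ CM (log2 fold change 1.37, SE 0.261, adjusted p = 0.00328, by the quasi-likelihood test of edgeR adjusted over all tested genes after Benjamini and Hochberg) and than in Foxa2- CM (1.79, SE 0.264, adjusted p = 0.000945). It was also higher in Flk1+ high than in Foxa2+ CM (1.96, SE 0.26, adjusted p = 0.0011) and Foxa2- CM (2.37, SE 0.263, adjusted p = 0.000523). Endoderm and Flk1+ high did not differ past the threshold (-0.59, SE 0.286, adjusted p = 0.153), nor did the CM groups (0.42, SE 0.236, adjusted p = 0.417). The highest *Hhex* level thus belonged to Flk1+ high, beside a summed level of the 10 haemato-endothelial markers of 1636 and 1958 CPM, against 47.1 and 96.5 CPM in endoderm. Their part in the *Hhex* level was not tested.

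*Prdm1*, a zinc finger repressor present in visceral and anterior definitive endoderm and in germ cell precursors, lies at chr10:44437177-44528501 on the minus strand (ENSMUSG00000038151.6). It was at 96.4 and 207 CPM in endoderm, 60.9, 61.9 and 31.9 CPM in Foxa2+ CM, 63.5, 53.3 and 23.1 in Foxa2- CM, and 6.09 and 7.32 CPM in Flk1+ high. Endoderm was highest and Flk1+ high lowest, neither overlapping the CM groups, which overlapped each other. In both CM groups replicate 3 was the lowest sample. *Prdm1* was higher in endoderm than in Foxa2+ CM (log2 fold change 1.56, SE 0.44, edgeR adjusted p = 0.0215), Foxa2- CM (1.7, SE 0.441, adjusted p = 0.0172) and Flk1+ high (4.5, SE 0.589, adjusted p = 0.000461). It was lower in Flk1+ high than in Foxa2+ CM (-2.94, SE 0.544, adjusted p = 0.0049) and Foxa2- CM (-2.8, SE 0.542, adjusted p = 0.00625). The CM groups differed by 0.15 (SE 0.37, adjusted p = 0.909). Without endoderm replicate 2, the differences from Foxa2+ CM (0.89, edgeR adjusted p = 0.22) and from Foxa2- CM (1.05, adjusted p = 0.17) were no longer called, and without Foxa2+ CM replicate 3 the first was 1.3 (adjusted p = 0.0633).

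*Hnf4a*, a nuclear receptor that drives the secretory and lipid-handling genes of visceral endoderm and liver, lies at chr2:163506808-163572910 on the plus strand (ENSMUSG00000017950.10). The span of an antisense gene, *Hnf4aos*, crosses it, but their exons share 0 bases. *Hnf4a* was at 6.06 and 27.5 CPM in endoderm, 1.24, 1.79 and 1.18 CPM in Foxa2+ CM, 0.0619, 0.0794 and 2.09 in Foxa2- CM, and 0.753 and 1.1 CPM in Flk1+ high. Both endoderm samples were above all others, yet they differed from each other more than any pair of Foxa2+ CM samples did, and Foxa2- CM was split, with 1 count in each of replicates 1 and 2 and 37 counts in replicate 3. *Hnf4a* was higher in endoderm than in Foxa2+ CM (log2 fold change 3.57, SE 0.923, edgeR adjusted p = 0.0145), Foxa2- CM (4.39, SE 0.975, adjusted p = 0.00838) and Flk1+ high (4.18, SE 1.14, adjusted p = 0.0194). Without endoderm replicate 2 none of the 3 was called (2.07, 2.9 and 2.71, with edgeR adjusted p of 0.185, 0.0967 and 0.146). The first was also lost without Foxa2+ CM replicate 1 (adjusted p = 0.0564) or 3 (adjusted p = 0.0512), and the last without Flk1+ high replicate 1 (adjusted p = 0.0713) or 2 (adjusted p = 0.0636). The differences of Flk1+ high from Foxa2+ CM (-0.62, SE 1.1, adjusted p = 0.732) and from Foxa2- CM (0.21, SE 1.15, adjusted p = 0.926) did not pass.

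*Trh* encodes the precursor of thyrotropin-releasing hormone and has served as a marker of early definitive endoderm. It lies at chr6:92242061-92244650 on the minus strand (ENSMUSG00000005892.4), directly after the window printed above. Its level was 202 and 205 CPM in endoderm, 33.0, 38.4 and 34.6 CPM in Foxa2+ CM, 16.0, 18.4 and 23.8 in Foxa2- CM, and 44.2 and 24.9 CPM in Flk1+ high. The endoderm samples lay close together and far above the others, every Foxa2+ CM sample was above every Foxa2- CM sample, and Flk1+ high overlapped Foxa2+ CM. *Trh* was higher in endoderm than in Foxa2+ CM (log2 fold change 2.52, SE 0.218, edgeR adjusted p = 3.95e-05), Foxa2- CM (3.39, SE 0.225, adjusted p = 1.13e-05) and Flk1+ high (2.55, SE 0.252, adjusted p = 9.96e-05). These 3 differences were called under each alternative that was run, the leaving out of each sample included. Flk1+ high and Foxa2+ CM differed by -0.03 (SE 0.224, adjusted p = 0.941), and Flk1+ high was 0.84 above Foxa2- CM (SE 0.225, adjusted p = 0.0273), which is under the 2-fold limit.

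**Figure D1:**
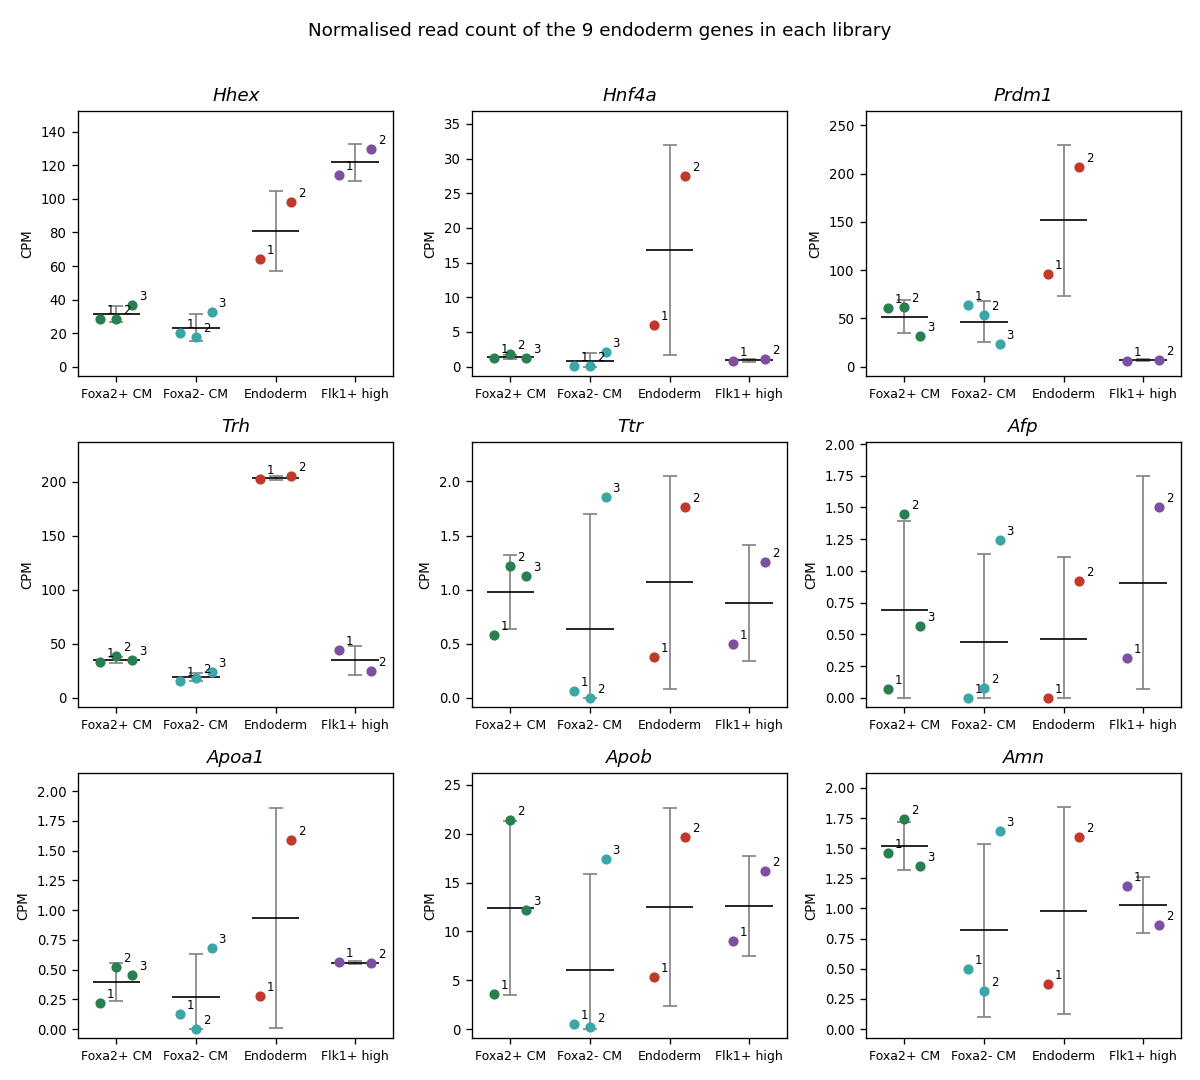
Level in CPM (linear axis from 0, scaled separately for each gene) of the 9 genes in each of the 10 samples, with the replicate number beside each point, the group mean as a black line and 1 SD as a grey bar that is not drawn below 0 (n = 3 for each CM group and 2 for the others). *Trh*, *Prdm1* and *Hnf4a* are highest in the endoderm samples and *Hhex* in Flk1+ high, whereas *Ttr*, *Afp*, *Apoa1*, *Apob* and *Amn* vary as much within groups as between them.

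The remaining 5 members make or take up the proteins for which visceral endoderm is known. *Apob*, which encodes the structural protein of low-density lipoproteins and needs Mttp for its assembly, lies at chr12:7977648-8016835 on the plus strand (ENSMUSG00000020609.8). It was at 5.31 and 19.7 CPM in endoderm, 3.58, 21.4 and 12.2 CPM in Foxa2+ CM, 0.557, 0.159 and 17.4 in Foxa2- CM, and 8.97 and 16.2 CPM in Flk1+ high. The highest value was in a Foxa2+ CM sample, and Foxa2- CM replicate 3 was on the level of the other groups whereas replicates 1 and 2 held 9 and 2 counts. *Ttr* (chr18:20665280-20674321, plus strand, ENSMUSG00000061808.3), encoding the thyroid hormone and retinol carrier transthyretin, was at 0.373 and 1.76 CPM in endoderm, 0.585, 1.22 and 1.13 CPM in Foxa2+ CM, 0.0619, 0 and 1.86 in Foxa2- CM, and 0.502 and 1.26 CPM in Flk1+ high. The highest value was again that of Foxa2- CM replicate 3.

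*Afp* (chr5:90490737-90508907, plus strand, ENSMUSG00000054932.3), encoding alpha-fetoprotein, the main serum protein of the embryo, was at 0 and 0.92 CPM in endoderm, 0.0731, 1.45 and 0.564 CPM in Foxa2+ CM, 0, 0.0794 and 1.24 in Foxa2- CM, and 0.314 and 1.5 CPM in Flk1+ high. *Apoa1* (chr9:46228580-46230466, plus strand, ENSMUSG00000032083.8), the main protein of high-density lipoproteins, was at 0.28 and 1.59 CPM in endoderm, 0.219, 0.521 and 0.451 CPM in Foxa2+ CM, 0.124, 0 and 0.677 in Foxa2- CM, and 0.565 and 0.551 CPM in Flk1+ high. *Amn* (chr12:111271095-111276426, plus strand, ENSMUSG00000021278.6) encodes amnionless, which carries the uptake receptor cubilin to the apical membrane, and was at 0.373 and 1.59 CPM in endoderm, 1.46, 1.74 and 1.35 CPM in Foxa2+ CM, 0.495, 0.318 and 1.64 in Foxa2- CM, and 1.19 and 0.866 CPM in Flk1+ high. None of these genes reached 2 CPM in any sample, and the low values rest on few counts, with at most 25 for *Afp*, 19 for *Apoa1* and 30 for *Amn*.

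For *Ttr*, *Afp*, *Apoa1*, *Apob* and *Amn* the endoderm values overlapped those of each other group, and no difference of endoderm or of Flk1+ high from another group passed the test, the smallest adjusted p in these 5 comparisons being 0.206 with edgeR. The standard errors were large, for example 1.31 on the log2 scale for *Apob* in endoderm against Foxa2+ CM, so that a 2-fold difference was not detectable there. In Foxa2+ CM against Foxa2- CM, *Apob* differed by 0.99 (SE 1.19, adjusted p = 0.787), *Ttr* by 0.5 (SE 0.984, adjusted p = 0.887) and *Amn* by 0.82 (SE 0.513, adjusted p = 0.475), while *Afp* and *Apoa1* were below edgeR's filter.

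Levels can be set side by side between genes only per length. In endoderm, *Trh* stood at 147 CPM per kilobase of exon, *Prdm1* at 27.2 ± 14.0 (SD, n = 2), *Hhex* at 16.0 ± 4.76 and *Hnf4a* at 3.48 ± 3.14. *Apob* was at 0.899 ± 0.732 CPM per kilobase, *Ttr* at 0.898 ± 0.825, *Apoa1* at 0.756 ± 0.749, *Amn* at 0.532 ± 0.467 and *Afp* at 0.137 ± 0.193. The 5 secreted and uptake genes were thus each below 1 CPM per kilobase in endoderm, and the same held for all 5 in the other 3 groups, where the group means ran from 0.131 for *Afp* in Foxa2- CM to 0.904 for *Apob* in Flk1+ high. As a percentage of the endoderm mean in CPM, the Foxa2+ CM mean was 17.4% for *Trh*, 8.38% for *Hnf4a*, 34.0% for *Prdm1* and 38.7% for *Hhex*, and it was 42.5% for *Apoa1*, 91.7% for *Ttr*, 98.9% for *Apob*, 151% for *Afp* and 155% for *Amn*. Except for *Trh* and *Hhex*, these percentages rest on endoderm samples that differed by more than 2-fold, with replicate 2 the higher.

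The endoderm comparisons addressed which endoderm genes set the sorted endoderm apart from the other sorted cells of the same line. Of the 9 members, 4 were higher and 0 lower in endoderm than in Foxa2+ CM (*Hhex*, *Prdm1*, *Hnf4a* and *Trh*), where 18.7% of all tested genes were called, 10.2% as higher and 8.49% as lower. The values of 4 members did not overlap between these groups, against 63.6% of tested genes. The same 4 genes were higher than in Foxa2- CM, where 17% of genes were called, 9.18% as higher and 7.81% as lower, and 4 members did not overlap, against 57.6% of genes. Leaving out Foxa2- CM replicate 3 added *Ttr* and *Apob* to them, with 15.9% of 15931 genes called and 9.03% higher. Against Flk1+ high, 3 were higher (*Prdm1*, *Hnf4a* and *Trh*), with 19.1% of genes called, 11% as higher and 8.11% as lower, and 4 members did not overlap, against 62.6% of genes. In Flk1+ high, *Hhex* was higher and *Prdm1* lower than in each CM group, where 11.4% of genes were called against Foxa2+ CM (5.17% higher and 6.25% lower) and 11.6% against Foxa2- CM (5.24% higher and 6.4% lower). In these comparisons 5 and 3 members did not overlap, against 50% and 46% of genes. Without Foxa2- CM replicate 3, *Trh*, *Ttr* and *Apob* were also called as higher in Flk1+ high than in Foxa2- CM, where 11.8% of 15931 genes were called, and with replicate 3 of both CM groups left out there were 4 calls beside 11.5% of 15814 genes. The endoderm comparisons share the endoderm samples, and those against 1 CM group share that group. Without endoderm replicate 2, *Hhex* and *Trh* were the members called against each CM group.

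**Figure D2:**
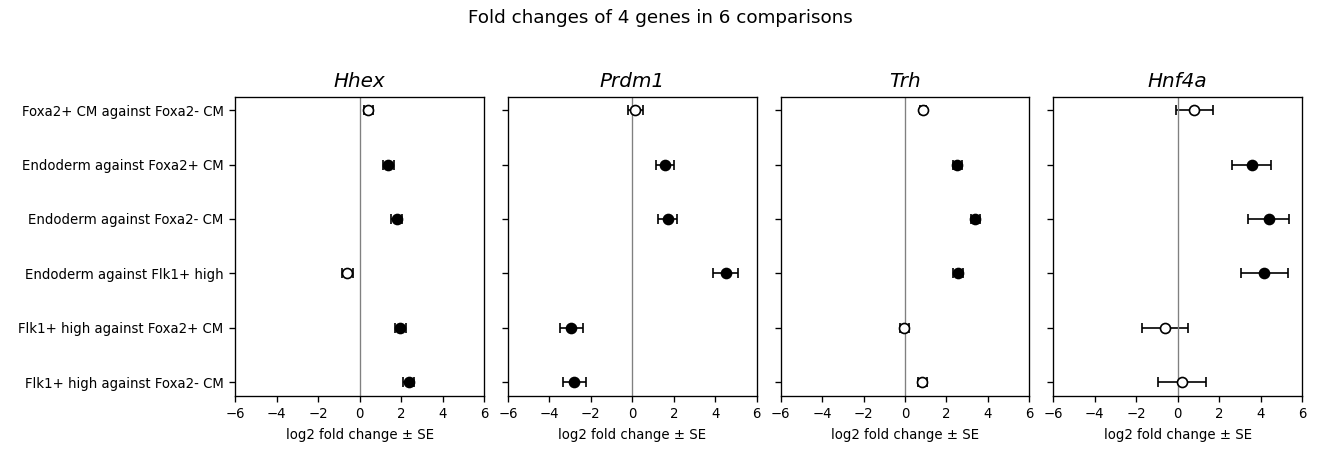
Log2 fold change (first group against second) with its standard error for *Hhex*, *Prdm1*, *Trh* and *Hnf4a* in the 6 comparisons, from edgeR's quasi-likelihood test, where filled points passed an adjusted p of 0.05 and the 2-fold limit. *Trh* has narrow errors and is called in the 3 endoderm comparisons, *Hnf4a* has errors near 1 in the same comparisons, and in Flk1+ high against either CM group *Hhex* is positive and *Prdm1* negative.

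The Foxa2+ and Foxa2- CM were compared to ask whether endoderm genes come with Foxa2 in cardiac mesoderm. With all 6 samples, 7 members were tested and 0 were called, where 3.01% of the 15284 tested genes were called, 1.49% as higher and 1.52% as lower. At an unadjusted p under 0.05 there was 1 (*Trh*), and DESeq2 called 0 at the same limits. *Trh* was higher in Foxa2+ CM by 0.86 on the log2 scale (SE 0.156, edgeR adjusted p = 0.0186), which is a fold of 1.82 and under the 2-fold limit. It was the only member whose values did not overlap between the CM groups, as they did not for 24% of tested genes. Without Foxa2- CM replicate 3, *Trh* (1.06, edgeR adjusted p = 0.000718), *Apob* (5.02, adjusted p = 0.00559), *Amn* (1.86, adjusted p = 0.012), *Hnf4a* (adjusted p = 0.00175) and *Ttr* (adjusted p = 0.006) were called as higher in Foxa2+ CM, and 4.7% of 15401 genes were called, 2.64% as higher. That library was singled out by its high values at most of the members, so these calls are a description and no independent support. No size is read from the folds of *Hnf4a* and *Ttr*, which depend on the prior count, because the remaining Foxa2- CM libraries held 1 and 1 counts of the first and 1 and 0 counts of the other. With replicate 3 of both CM groups left out, *Trh*, *Apob*, *Amn* and *Hnf4a* were called, with 6.44% of 15093 genes, 3.29% as higher. The low *Apob*, *Hnf4a* and *Ttr* in Foxa2- CM was therefore that of replicates 1 and 2, and replicate 3 showed no such low level, while its haemato-endothelial markers *Cdh5* (43.4 CPM, against 2.85 and 1.98) and *Tek* (30.6 CPM, against 1.92 and 3.25) were also raised above those replicates. Their part in the level of the members was not tested.

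The wider visceral endoderm list held 27 genes, of which 20 passed the filter over all 10 samples. In endoderm against Foxa2+ CM, 2 were higher (*Hnf4a* and *Spink1*) and 3 lower (*Apoc2*, *Soat2* and *Cited1*), with a median log2 fold change of -0.14 beside 0.01 over all tested genes. *Spink1*, a trypsin inhibitor, was at 6.15 and 19.6 CPM in endoderm and at most 1.3 CPM in the CM samples (a log2 fold change of 3.84, SE 0.955, edgeR adjusted p = 0.0122). *Apoc2*, the activator of lipoprotein lipase, had 0 counts in both endoderm samples and 1.1, 2.49 and 1.52 CPM in Foxa2+ CM, so that it was at least 6.41-fold lower in endoderm when 3 counts are taken in each endoderm library, and the list's median was -0.14 with it at this bound. *Soat2*, which esterifies cholesterol, was at 0.466 and 1.59 CPM in endoderm and 7.09, 6.25 and 5.25 CPM among the Foxa2+ CM samples (log2 fold change -2.56, SE 0.461, adjusted p = 0.00243). Without endoderm replicate 2 the list had 0 higher and 3 lower, and the median was -0.95. Several genes typical of the tissue were absent or nearly so. *Fga* had 0 counts in all 10 samples, and *Apoa2*, *Trf* and *S100g* were at or under 0.418 CPM throughout. Others of the list were clearly detected. *Apoe* was at 75.7 and 95.4 CPM in endoderm and at 114 to 159 CPM in the other samples. In endoderm, *Dab2* was at 21.4 and 27.4 CPM and *Rbp4* at 6.99 and 9.37 CPM. None of *Apoe*, *Dab2* and *Rbp4* was called in endoderm against Foxa2+ CM.

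**Figure D3:**
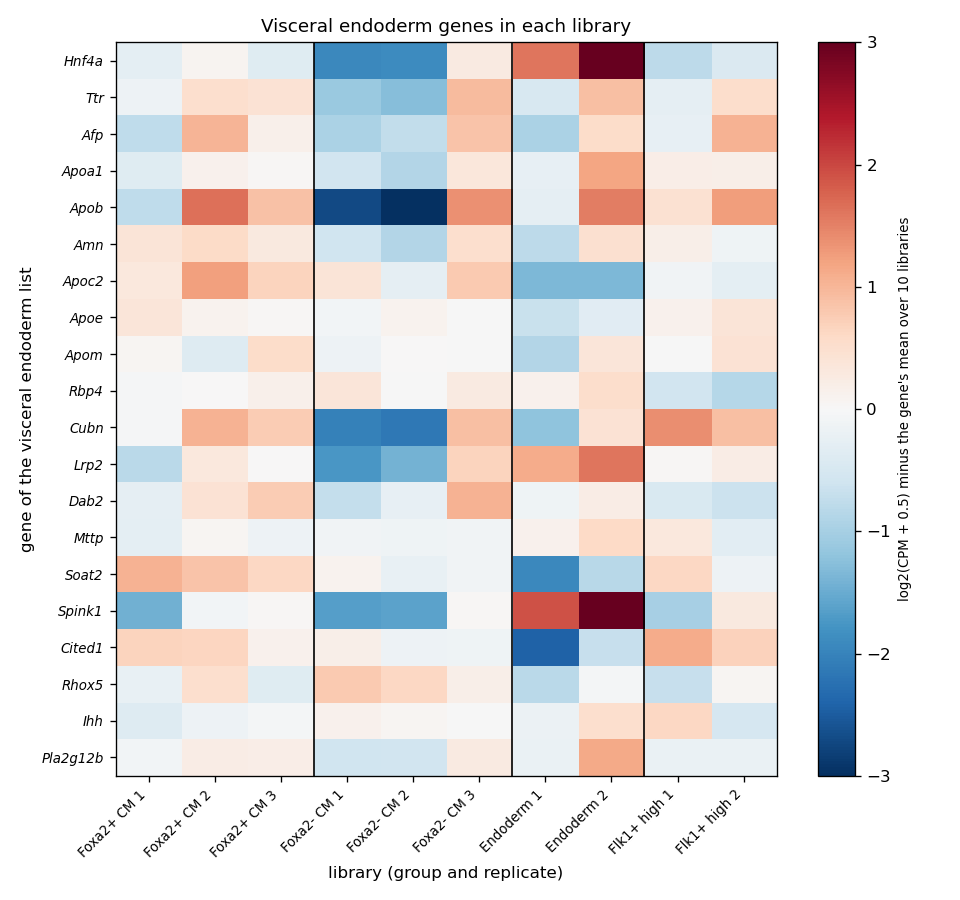
Heat map of the 20 tested genes of the visceral endoderm list (rows) in the 10 samples (columns, black lines between groups), coloured by log2(CPM + 0.5) minus the gene's mean over the samples. *Hnf4a* and *Spink1* are highest in endoderm replicate 2, and *Apob*, *Cubn* and *Lrp2* are low in Foxa2- CM replicates 1 and 2 but not in replicate 3.

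Foxa2+ CM against Foxa2- CM called 1 of the 18 visceral genes tested there, *Soat2* (log2 fold change 1.03, SE 0.196, edgeR adjusted p = 0.0227), with a median of 0.52 over the list. Without Foxa2- CM replicate 3, 7 of 18 were higher (*Amn*, *Apob*, *Cubn*, *Hnf4a*, *Lrp2*, *Soat2* and *Ttr*), beside the 2.64% of all tested genes given above. That library was singled out by its high values at genes of this same list. The count is therefore a description and cannot be weighed against the share of all genes. The partners of *Amn* in uptake were low in the same Foxa2- CM samples. *Cubn*, encoding cubilin, was at 0.991, 0.873 and 10.8 CPM in Foxa2- CM, at least 5.48 CPM in each Foxa2+ CM sample, 15.4 and 10.9 CPM in Flk1+ high, and 2.14 and 7.7 CPM in endoderm. *Lrp2*, encoding megalin, was at 5.02, 6.43 and 28.6 CPM in Foxa2- CM, 9.94, 22.3 and 18.0 in Foxa2+ CM, 18.3 and 20.9 CPM in Flk1+ high, and 39.4 and 55.6 CPM in endoderm. *Lrp2* was highest in the endoderm samples and *Cubn* in Flk1+ high or Foxa2+ CM samples, but neither was called in endoderm against Foxa2+ CM (*Lrp2* 1.5, SE 0.628, edgeR adjusted p = 0.0929; *Cubn* -0.88, SE 0.967, adjusted p = 0.514).

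Of 18 shared endoderm genes, 13 were higher and 1 lower in endoderm than in Foxa2+ CM, with a median log2 fold change of 2.4. The 13 include *Foxa2*, on which the cells were sorted, so its call is no independent result. The largest differences were those of *Cer1*, a secreted Nodal and Wnt antagonist (8.09, SE 0.276, edgeR adjusted p = 4.8e-07), *Foxa1* (5.94, SE 0.25, adjusted p = 8.77e-07) and *Cdh1*, encoding E-cadherin (5.51, SE 0.132, adjusted p = 8.86e-08), and the lower gene was *Gata4* (-1.52, SE 0.347, adjusted p = 0.00802). An anterior visceral endoderm list of 8 genes, to which *Hhex* belongs, had 7 higher and 0 lower (median 3.07), among them *Lefty1* (6.24, SE 0.361, adjusted p = 5.21e-06) and *Hesx1*, which had 34 and 89 counts in endoderm and 0, 2 and 0 counts in Foxa2+ CM, too few there for a fold. Without endoderm replicate 2, 12 shared genes were higher and 1 lower (median 2.1), and 6 anterior visceral genes were higher and 0 lower (median 3.01). Without replicate 1, *Gata4* was no longer called. *Cer1*, *Hhex* and *Otx2* are also made by anterior definitive endoderm, so this list does not part the tissues by itself. The definitive endoderm list of 6 genes had 4 that passed the filter and 1 that was higher, *Trh* (median 0.5). *Cxcr4*, *Gsc* and *Mixl1* were present in CM too, at 28.8 to 267 CPM, and were not called against Foxa2+ CM. Against Foxa2- CM, 2 of the 4 were higher in endoderm, *Trh* and *Gsc* (1.12, SE 0.367, edgeR adjusted p = 0.0455). All 4 were higher in endoderm than in Flk1+ high. *Nepn* and *Pyy*, 2 further definitive markers, were at or under 0.466 CPM in every endoderm and CM sample.

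**Figure D4:**
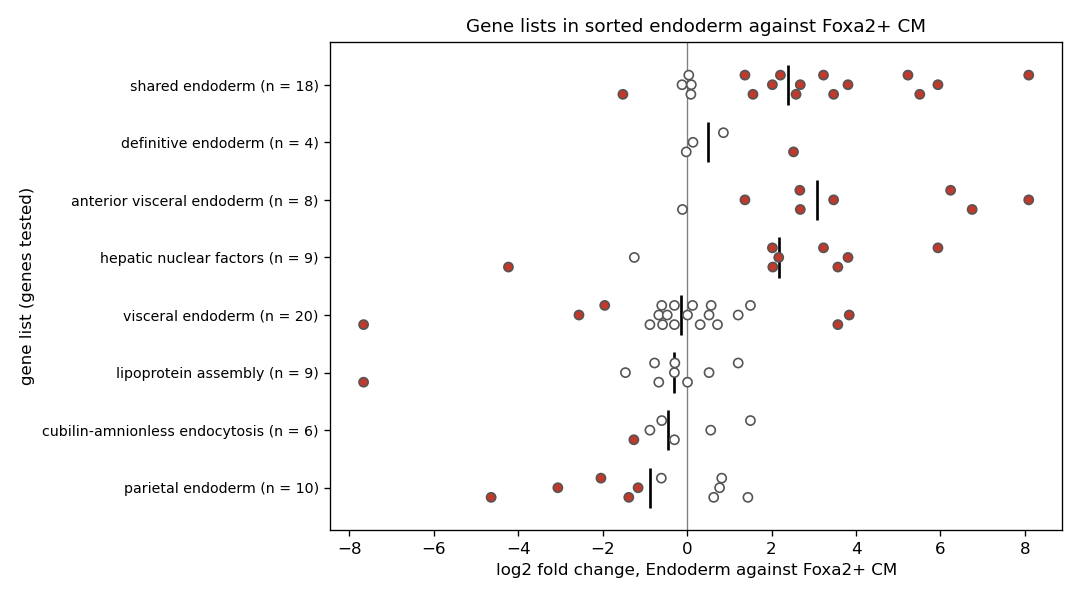
Log2 fold change in endoderm against Foxa2+ CM of each tested gene of 8 lists, with filled points for genes that passed an adjusted p of 0.05 and the 2-fold limit and a black line at the list's median. Shared and anterior visceral endoderm genes and hepatic nuclear factors lie mostly to the right (medians 2.4, 3.07 and 2.17), the visceral and lipoprotein lists are centred near 0 (medians -0.14 and -0.3), and the leftmost point is *Apoc2*, whose plotted fold, like those of *Hesx1* and *Onecut1*, rests on a group with at most 2 counts in a library and depends on the prior count.

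Of the 13 hepatic nuclear factors, the regulators under which the visceral and liver secretory genes stand, 9 passed the filter and 7 were higher in endoderm than in Foxa2+ CM, 1 was called as lower (*Onecut1*, with 0 and 2 counts in endoderm and 20, 43 and 25 counts in Foxa2+ CM), and the median was 2.17. Without endoderm replicate 2, 6 were higher and 1 lower. Among the higher genes, *Hnf4a*, *Foxa1* and *Foxa2* had the largest differences. *Foxa2* is the gene on which the cells were sorted, so its call follows the sort and is no independent result. In Foxa2+ CM against Foxa2- CM, *Onecut1* was higher (1.58, SE 0.352, adjusted p = 0.0388), and the median over the list was -0.28. Of 9 tested lipoprotein assembly genes 0 were higher and 1 was lower (median -0.3), and *Mttp*, the transfer protein that loads *Apob* with lipid, was at 13.5 to 25.9 CPM in all 10 samples. Of 6 cubilin-amnionless genes 0 were higher and 1 lower (median -0.45). Among 10 hepatocyte secreted proteins 1 passed the filter and was not called, and *Alb* and *Fabp1* had 0 counts in every sample.

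Among 10 genes that process, degrade or receive thyrotropin-releasing hormone, *Trh* included, 7 were tested and 3 were higher and 2 lower in endoderm than in Foxa2+ CM. *Pcsk1*, a convertase that cuts the precursor, was at 0.95, 0.926 and 0.846 CPM in Foxa2+ CM and higher in endoderm, at 6.06 and 6.78 CPM (log2 fold change 2.81, SE 0.302, edgeR adjusted p = 0.000138), and *Cpe*, which trims the cut ends, was higher by 1.34 (SE 0.268, adjusted p = 0.00414). *Qpct*, the glutaminyl cyclase that forms the first residue of the hormone, was lower (-3.65, SE 0.491, adjusted p = 0.000485), as was the receptor gene *Trhr2* (-4.43, SE 0.476, adjusted p = 0.00014), which ranged from 7.5 to 7.87 CPM in Foxa2+ CM and from 4.4 to 5.93 CPM in Foxa2- CM, with at most 0.788 CPM in endoderm and Flk1+ high. The other receptor gene, *Trhr*, had 0 counts in all 10 samples. The hormone precursor and its receptor gene were thus highest in different sorts.

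Markers of other cell types also moved with the endoderm sort. Of 10 pluripotency genes 7 were higher and 1 lower than in Foxa2+ CM, with summed levels of 1429 and 1331 CPM in endoderm and 286 to 515 CPM in the other samples. Of 5 tested axial mesoderm genes 3 were higher and 1 lower, among them *Chrd* (6.22, SE 0.212, edgeR adjusted p = 4.8e-07) and *Noto*, with 58 and 65 counts in endoderm and 0, 0 and 1 counts in Foxa2+ CM, and the list summed to 502 and 381 CPM in endoderm and 84.1 to 216 CPM elsewhere. Of 12 cardiac mesoderm genes 8 were lower and 0 higher. The 8 include *Kdr* and *Pdgfra*, on which the CM cells were sorted as positive, so their calls follow the sort and are no independent result. The part of these other markers in the levels of the 9 genes was not tested.

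The genes whose profile over the 10 samples was most like that of a member were found by the root mean square difference of centred log2 CPM. For *Trh* they were *Ralgps1* (0.23), *Adgrv1* (0.28) and *Pgap1* (0.31), where the median over all tested genes was 1.25. For *Hhex* they were *Iqgap2* (0.23), *Atp6v0e2* (0.25) and *B4galt4* (0.26), with a median of 1.04, and for *Prdm1* they were *Plbd1* (0.29), *Timp4* (0.36) and *Per2* (0.4), with a median of 1.52. *Hnf4a* was nearest to *Hkdc1* (0.67), *Jaml* (0.71) and *Spink1* (0.74), with a median of 2.0. *Apob* had *Folr1* (0.9), *Cubn* (0.97) and *Srgn* (1.12) as nearest genes and *Ttr* (0.88) as nearest member, with a median of 2.06. *Folr1*, encoding a folate receptor, was also the nearest gene to *Ttr* (0.43, median 1.3) and the second to *Afp* (0.79, median 1.43), and *Ttr* and *Apoa1* were each other's nearest members (0.59). *Trh*, *Hhex* and *Prdm1* had nearest members at 1.08, 0.77 and 1.4. *Afp*, *Ttr* and *Apob* thus had *Folr1* in common among their nearest genes, while the lists for *Trh*, *Hhex* and *Prdm1* held no gene in common. For *Apoa1* the nearest genes were *Mtus2* (0.42), *Srgn* (0.43) and *Ly6g6d* (0.46), with a median of 0.99, and for *Amn* they were *Gm6967* (0.38), *Prkg1* (0.39) and *Paqr5* (0.46), with a median of 0.81. These distances are descriptions over 10 samples that share groups and depth.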

How the data were processed

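The 9 genes and the gene lists were chosen with earlier results of these data known. The authors isolated RNA from sorted cells, aligned reads to mm10 with STAR 2.5.0a, removed duplicates with Picard and counted reads per gene with HTSeq 0.6.0, per the submitters' processing notes and the study's methods. What the authors deposited are raw read counts for each gene, not normalized. Removing duplicates without molecular identifiers can limit the counts of strongly expressed genes. HTSeq's rows for reads outside genes (17.1 to 25.6% of uniquely aligned reads) and for ambiguous reads (2.18 to 2.37%) were left out of library sizes and tests. The strand setting of the counting was not given in the sources used here.

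Identifiers were matched without version to GENCODE M21 (37607 of 38924 matched), which also gave positions on GRCm38, the mm10 build, and merged exon lengths. The promoter windows and motif words were read from a RefSeq table of GRCm38.p6. Counts were normalized with TMM, filtered with filterByExpr and tested with edgeR 4.0.16 (quasi-likelihood, Benjamini-Hochberg) in R 4.3.3, and a gene was called at an adjusted p under 0.05 and at least 2-fold. Foxa2+ CM against Foxa2- CM used the 6 CM samples and 15284 genes, while the 5 other comparisons used 1 model of all 10 samples and 16180 genes. CPM used TMM library sizes, and the logarithm for profile distances added a prior count of 2. SEs were taken from the log2 fold change and the root of its F statistic. Every pair of replicates differed by more than counting noise (chi-square per degree of freedom 3.72 to 21.5). The fits were tested on simulated data. Figures were drawn with matplotlib 3.10.9 from tables made with pandas 2.3.3.

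Named genes are the 9 members, up to 3 called genes per direction with the largest fold change in a list discussed, its markers at or near 0, the 3 genes nearest in profile to a member, and the sort markers. Genes named outside this rule, such as *Cubn*, *Lrp2*, *Apoe*, *Dab2*, *Rbp4*, *Lamb1*, *Lamc1*, *Mttp*, *Cdh5* and *Tek*, were chosen after their values were seen. Alternatives were DESeq2 1.42.0, its size factors, other filters and call rules, other samples in the fit, the replicate block and leaving out each sample. Leaving out replicate 3 of both CM groups was chosen after seeing the data. Some genes of the lists are not reported here.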

Additional observations from a re-analysis of the deposited data

How the results depend on the processing

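The number of members called was 0, 4, 4, 3, 2 and 2 in Foxa2+ CM against Foxa2- CM, endoderm against Foxa2+ CM, Foxa2- CM and Flk1+ high, and Flk1+ high against Foxa2+ CM and Foxa2- CM. When samples were left out in turn the counts ran from 0 to 5, 2 to 4, 2 to 6, 2 to 3, 2 in each case, and 2 to 5. Leaving out Foxa2- CM replicate 3 gave the 5, 6 and 5. Leaving out replicate 3 of both CM groups, chosen after seeing the data, gave 4 in the first comparison and 4 in the last. With no fold limit the first had 1, and a test against the 2-fold limit itself left 1 (*Trh*) in endoderm against Foxa2+ CM. The deviations of same-numbered CM samples correlated with r = 0.447, 0.075 and 0.539 over 16180 genes. Replicate 2 was under the 0.1 asked of every pair, so the numbers were not taken as a pairing, and the replicate block gave 0, 4, 4, 3, 2 and 2 calls. Some small differences that were not called changed sign. *Prdm1* between the CM groups ran from -0.17 to 0.43 and *Ttr* from -0.06 to 4.56 when samples were left out, *Hnf4a* in Flk1+ high against Foxa2- CM from -0.36 to 3.56, and *Trh* in Flk1+ high against Foxa2+ CM from -0.51 to 0.29, with 0.02 under the replicate block. The upper ends for *Ttr* and *Hnf4a* are those without Foxa2- CM replicate 3, where the remaining libraries held 1 and 0 and 1 and 1 counts, so they depend on the prior count and are no size of effect. The cause was not tested. Of 25 further fold changes of *Ttr*, *Afp*, *Apoa1*, *Apob* and *Amn* that are not printed, 21 changed sign under at least 1 alternative, and *Apob* and *Ttr* were called against Foxa2- CM only where its replicate 3 was left out. Depth limits *Ttr*, *Afp*, *Apoa1* and *Amn*, whose counts were at most 33 in any sample.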

Other observations

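Parietal endoderm is the other extra-embryonic endoderm of the conceptus. Of 10 of its genes tested, 5 were called as lower and 0 as higher in endoderm than in Foxa2+ CM (median log2 fold change -0.88, beside 0.01 over all genes). The laminin genes *Lamb1* (341 and 412 CPM) and *Lamc1* (363 and 450.1 CPM) were highest in the endoderm samples and passed the test under the 2-fold limit (0.77, SE 0.138, edgeR adjusted p = 0.00242, and 0.63, SE 0.151, adjusted p = 0.00995). *Sox7*, a factor shared with early endothelium, was at 0.373 and 1.34 CPM in endoderm and 177 and 213 CPM in Flk1+ high, and *Lama1*, a laminin chain of the basement membrane, at 8.94 and 15.7 CPM in endoderm and 82.2 to 119 CPM in Foxa2+ CM. Among 9 germ cell genes, of which *Prdm1* is 1, 7 were tested, with 2 higher and 1 lower in endoderm than in Foxa2+ CM. The lower gene was *Prdm14*, at 0.0932 and 0.167 CPM in endoderm, 1.39, 2.95 and 2.88 CPM in Foxa2+ CM and 9.1, 12.1 and 5.36 in Foxa2- CM, and *Dppa3* was at or under 0.158 CPM in all 10 samples.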
